A study of Mus musculus with 9 samples.

Results

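The mitotic spindle and cytokinesis genes described here are 34 genes whose products build the mitotic spindle, attach chromosomes to it, control passage through mitosis or divide the cell. They were picked by gene symbol from a named list and are 34 of the 27179 genes in the count table, and all 34 were found and passed the filter on low counts. Poly(A) RNA was sequenced from whole mandibles, teeth included, of 6-month-old male mice on the C57BL/6 background. The groups were 5 wild-type (WT) mice and 4 mice labelled FcγRIIB-/-, which by that label lack both alleles of the inhibitory IgG receptor FcγRIIB, and no treatment is labelled. Such mice serve as a model of lupus, an autoimmune disease. A whole mandible holds bone, marrow, teeth, oral epithelium and adjoining soft tissue. The deposited totals lay between 21453880 and 28991631 counts per library, and the p-values given here measure the spread between these samples.

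A cell that enters mitosis condenses its chromosomes, captures them with spindle microtubules through kinetochores, waits at the spindle checkpoint until each chromosome is attached, and then separates the chromatids and cleaves. Most genes for these steps are transcribed in late S, G2 and M phase and are nearly silent in resting cells, so their transcripts are widely used as markers of dividing cells. In an adult mandible, dividing cells are found in the marrow spaces, the oral epithelium and the growing end of the incisor.

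The targeted gene was examined first. Fcgr2b was at 20.9, 38.3, 17.0, 23.1 and 20.7 CPM (read counts divided by the normalized library size) in WT replicates 1 to 5 and at 26.5, 25.97, 26.6 and 32.1 CPM in replicates 1 to 4 labelled FcγRIIB-/-. The groups overlapped, and the log2 fold change was 0.21 (SE 0.20, adjusted p = 0.442 in edgeR's quasi-likelihood test with Benjamini-Hochberg adjustment). Leaving out WT replicate 2, the highest library, gave a log2 fold change of 0.46, which passed as higher (adjusted p = 0.0131 in edgeR's test). Since Fcgr2b was not lower under the knockout label, the groups are named by their labels, and each direction below is between libraries by label. The labelled tissue was checked against bone and tooth genes. Col1a1, the main collagen of bone and dentin, was the most abundant of the osteoblast and osteocyte genes, at 31252 ± 5993 CPM in WT (SD, n = 5) and 32589.8 ± 4597 CPM in the libraries labelled FcγRIIB-/- (SD, n = 4). Dspp, the dentin matrix gene of odontoblasts, had means of 4689.6 and 6297 CPM in the same order, and Amelx, the main enamel protein of ameloblasts, of 7275 and 18474 CPM. Col1a1 and Dspp did not pass. Amelx was higher under the knockout label (log2 fold change 1.34, adjusted p = 0.0076 in edgeR's test), so the groups were not alike in this tooth gene.

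Several of these genes are known to share promoter elements, the CCAAT box bound by NF-Y and the cell cycle homology region (CHR) bound by the DREAM and MuvB complexes, so their promoters are shown first. RefSeq windows from 250 bases before to 50 bases after the start site (GRCm38.p6) were given for 29 of the 34 genes, in 31 windows. The 5 genes with no window were Aurkb, Ccna2, Incenp, Kif20a and Tpx2. Each window was searched on both strands for TTTGAA (reverse TTCAAA) and TTTAAA (its own reverse), the cores of the CHR, and for CCAAT (reverse ATTGG), and matches were allowed to overlap. The stretches below are those of Mki67, Kif11 and Cenpf, each the most abundant gene of its role group with a match, and of Ccnb2, which was chosen after its matches were seen. They lie at chr7:135716451-135716529 (minus strand), chr19:37376232-37376381 (plus strand), chr1:189688108-189688236 (minus strand) and chr9:70421555-70421704 (minus strand). All are written 5′ to 3′ on the gene's strand, start no more than 150 bases before the start site and stop before the outermost RefSeq start of the gene, with the matches in capitals.
Mki67: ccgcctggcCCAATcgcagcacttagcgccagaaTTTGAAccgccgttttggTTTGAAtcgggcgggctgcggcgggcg
Kif11: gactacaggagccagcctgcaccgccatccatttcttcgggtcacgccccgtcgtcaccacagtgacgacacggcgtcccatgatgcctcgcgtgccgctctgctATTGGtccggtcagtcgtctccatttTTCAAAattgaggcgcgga
Cenpf: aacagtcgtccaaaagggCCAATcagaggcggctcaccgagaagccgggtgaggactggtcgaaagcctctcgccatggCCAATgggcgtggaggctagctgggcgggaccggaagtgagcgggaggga
Ccnb2: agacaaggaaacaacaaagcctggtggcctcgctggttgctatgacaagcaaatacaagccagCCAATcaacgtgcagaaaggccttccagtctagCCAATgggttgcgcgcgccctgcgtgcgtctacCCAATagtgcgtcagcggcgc
The Mki67 stretch held a CCAAT followed by TTTGAA at a pair of places. Its window also held CCAAT at -188 and ATTGG at -166 from the start site, outside the stretch printed. The Kif11 stretch held the reverse forms of both motifs close to the start site, ATTGG at position -45 and TTCAAA at position -19, counted from the start site as 0. In Cenpf the stretch held CCAAT at -132 and -71. A TTTAAA at -154 and a TTTGAA just past the start site at 2 lay outside the stretch printed. Ccnb2, the gene of cyclin B2, held CCAAT at -87, -54 and -21, with 33 bases between the first letters of neighbours, and TTTGAA at -167 and 4, both outside the stretch printed.

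Over the 31 windows, TTTGAA was found in 24 windows (77.4%), against 17.9% of all 32851 RefSeq windows of the same length. TTTAAA was in 9 windows (29%, against 13.2% of all), and either CHR core in 27 (87.1%, against 27.6%). CCAAT was in 25 windows (80.6%, against 37.4%), and at 2 or more places in 17 (54.8%, against 11.7%). CCAAT together with a CHR core was held by 23 windows (74.2%, against 10.7%). Ect2 and Prc1 each had overlapping windows, which were counted separately. By gene, 25 of the 29 held a CHR core and 23 held CCAAT. Top2a had CCAAT, on either strand, at 6 places and TTTGAA at -179 and -23. The windows of Nuf2 and Nusap1 held none of these letters. Cdc20, Ttk and Ndc80, the genes that did not pass the test below, held matches too. A match says only that these letters are present.

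In the mandibles labelled FcγRIIB-/-, 31 of the 34 genes were lower than in WT, 0 were higher and 3 did not pass the threshold, an adjusted p of 0.05 in edgeR's quasi-likelihood test. Of all 16329 genes tested, 19.3% were lower and 14% were higher. DESeq2's Wald test called 31 genes lower as well, against 18% of the genes it tested. The median log2 fold change of the 34 genes was -0.82, a level 1.77-fold lower, and that of all tested genes was 0.01. The middle of the list lay between -1.07 and -0.73 (quartiles), with Mki67 at -1.66 and Ndc80 at -0.27 at its ends. In 12 genes the log2 fold change was -1 or below and passed, as in 6.55% of all tested genes. In 28 genes all 5 WT mice were above all 4 mice labelled FcγRIIB-/-, as in 17.5% of all tested genes. The 6 genes in which the groups overlapped were Ccnb1, Aurka, Ttk, Cdc20, Ndc80 and Anln. In whole tissue, fewer dividing cells and less of these transcripts per cell cannot be told apart.

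Summed over the 34 genes, the level was 1000.4, 938, 740.0, 936 and 1170.0 CPM in WT replicates 1 to 5 and 510.4, 529.9, 453 and 366 CPM in replicates 1 to 4 labelled FcγRIIB-/-. The lowest WT library was thus above the highest library labelled FcγRIIB-/-. The group means were 957 ± 154 (SD, n = 5) and 465 ± 73.5 CPM (SD, n = 4), so the summed level under the knockout label was 48.6% of that in WT. The same libraries stood at the ends for most of the genes. WT replicate 5 was the highest of all 9 libraries for 31 genes and WT replicate 1 for the other 3. WT replicate 3 was the lowest WT library for 32 genes. Replicate 4 labelled FcγRIIB-/- was the lowest of all for 29 genes, and replicate 3 for the other 5. Without WT replicate 5 and replicate 4 labelled FcγRIIB-/- together, a choice made after these levels were seen, 27 of the 34 genes were lower and the median log2 fold change was -0.62. The median coefficient of variation of the 34 genes was 17.0% in WT and 18.4% under the knockout label, wider than the 10.6% and 12.6% over all tested genes.

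**Figure D1:**
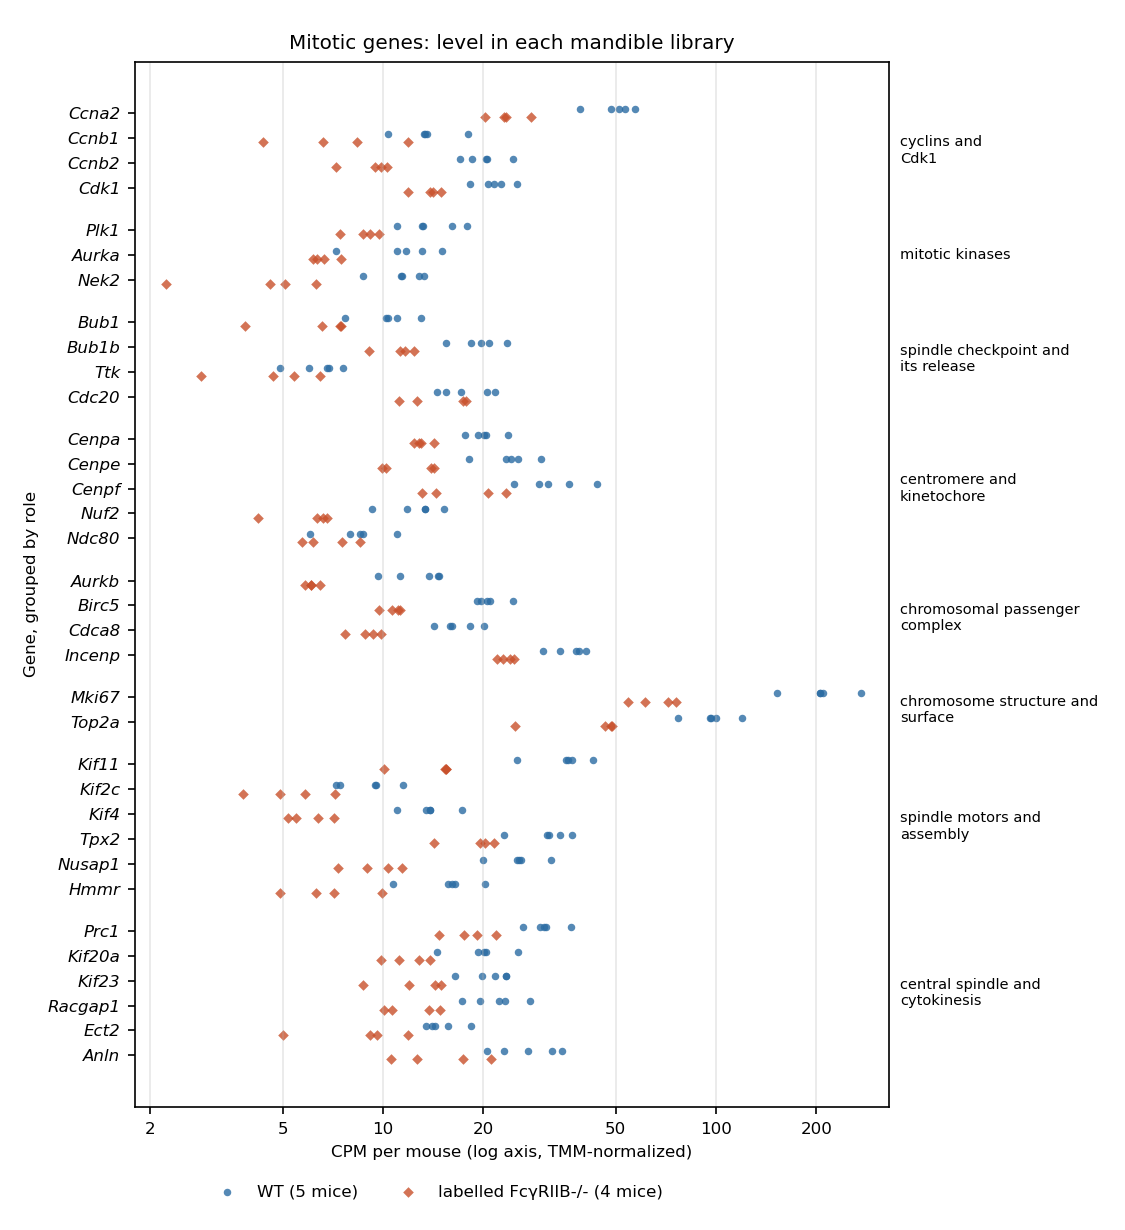
CPM of each of the 34 mitotic genes in each library on a log axis, grouped by role, with a blue circle for each of 5 WT mice and an orange diamond for each of 4 mice labelled FcγRIIB-/-. In 28 genes all circles lie to the right of all diamonds, and in Ccnb1, Aurka, Ttk, Cdc20, Ndc80 and Anln they overlap.

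Among the cyclins and their kinase, all 4 genes were lower, with a median log2 fold change of -0.94. Ccna2, the cyclin of S and G2 phase, was at 53.1, 48.5, 39.0, 51.3 and 57.2 CPM in WT replicates 1 to 5 and at 23.4, 27.7, 23.1 and 20.2 CPM in replicates 1 to 4 labelled FcγRIIB-/-. Its log2 fold change was -1.08 (SE 0.12, adjusted p = 3.5e-04 in edgeR's quasi-likelihood test), and the groups were well apart. Ccnb2 fell from 20.2 ± 2.86 to 9.20 ± 1.35 CPM and Cdk1, the kinase that drives entry into mitosis, from 21.7 ± 2.58 to 13.7 ± 1.32 CPM. Ccnb1, the main partner of Cdk1 at mitotic entry, was lower by the least secure margin, with a log2 fold change of -0.81 (SE 0.25, adjusted p = 0.031 in edgeR's test). Replicate 2 labelled FcγRIIB-/- was at 11.9 CPM of Ccnb1, above WT replicate 3 at 10.4 CPM. The call of Ccnb1 was lost without any one of WT replicates 1, 4 and 5 or of replicates 1, 3 and 4 labelled FcγRIIB-/-, with adjusted p-values up to 0.0811 in edgeR's test. The count table also held the processed pseudogene Ccnb1-ps, so the split of reads between the copies is uncertain.

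The 3 mitotic kinases were all lower, with a median log2 fold change of -0.80. Plk1, which acts at centrosomes, kinetochores and the midbody, was at 16.1, 13.2, 11.03, 13.1 and 17.8 CPM in WT and at 9.14, 9.75, 8.73 and 7.45 CPM under the knockout label, with a log2 fold change of -0.70. Each WT mouse was above each mouse labelled FcγRIIB-/-, and WT replicate 3 and replicate 2 labelled FcγRIIB-/- lay nearest to each other. Nek2, a kinase of centrosome separation, fell further, from 11.5 ± 1.78 to 4.54 ± 1.70 CPM (log2 fold change -1.33). Its 44 counts in replicate 4 labelled FcγRIIB-/- were the fewest of any of the 34 genes in any library. Aurka, the Aurora kinase of spindle poles, fell from 11.6 ± 2.89 to 6.66 ± 0.599 CPM, and WT replicate 3, at 7.25 CPM, lay below replicate 1 labelled FcγRIIB-/- at 7.498 CPM.

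Of the 4 genes of the spindle checkpoint and its release, 2 were lower and 2 did not pass, and the difference between these changes was not tested. Bub1 and Bub1b, kinases or kinase-like proteins of the checkpoint at unattached kinetochores, were lower, with log2 fold changes of -0.72 and -0.82. The call of Bub1 was lost without WT replicate 4 or WT replicate 5, at adjusted p-values of 0.0524 and 0.0522 in edgeR's test. Cdc20, the activator of the anaphase-promoting complex that the checkpoint holds back, was at 20.5, 17.2, 14.5, 15.4 and 21.7 CPM in WT and at 17.4, 17.7, 12.6 and 11.1 CPM in the libraries labelled FcγRIIB-/-. Its log2 fold change was -0.28 (SE 0.17, adjusted p = 0.232 in edgeR's test), and replicates 1 and 2 labelled FcγRIIB-/- were above 3 of the WT libraries. Ttk, the Mps1 kinase that starts checkpoint signalling, was at 6.81, 6.86, 6.01, 4.92 and 7.57 CPM in WT and at 4.66, 5.41, 6.48 and 2.84 CPM under the knockout label. Its log2 fold change was -0.41 (SE 0.22, adjusted p = 0.179 in edgeR's test), with WT replicates 3 and 4 inside the range of the other group. Ttk had the lowest mean WT level of the 34 genes, 6.44 CPM.

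Of the 5 centromere and kinetochore genes, 4 were lower, with a median log2 fold change of -0.89 over the 5. Cenpf, a large kinetochore protein, was at 36.2, 29.4, 24.7, 31.3 and 43.9 CPM in WT and at 20.7, 23.3, 14.4 and 13.1 CPM under the knockout label (log2 fold change -0.89, SE 0.20, adjusted p = 0.0081 in edgeR's test). The groups did not overlap, and replicates 3 and 4 labelled FcγRIIB-/- were the lowest. Cenpe, a kinesin that carries chromosomes to the spindle equator, fell from 24.2 ± 4.19 to 12.1 ± 2.30 CPM. Cenpa, the histone H3 variant of centromeres, fell from 20.2 ± 2.23 to 13.1 ± 0.766 CPM.

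Nuf2 and Ndc80 are partners in the complex that holds microtubules at the kinetochore, and their values differed. Nuf2 was lower, from 12.6 ± 2.24 to 5.99 ± 1.20 CPM, with a log2 fold change of -1.07 (SE 0.18, adjusted p = 0.0019 in edgeR's test). Ndc80 was at 8.69, 7.99, 6.05, 8.52 and 11.05 CPM in WT and at 7.53, 6.15, 8.52 and 5.73 CPM in the libraries labelled FcγRIIB-/-, with a log2 fold change of -0.27 (SE 0.18, adjusted p = 0.263 in edgeR's test). Replicate 3 labelled FcγRIIB-/- was thus level with WT replicate 4 in Ndc80, and the groups overlapped widely. The difference between the changes of the partners was not tested.

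The chromosomal passenger complex, which corrects faulty attachments and then marks the cleavage plane, was lower in all 4 subunits, with a median log2 fold change of -0.95 and no overlap between the groups in any of them. Incenp, its scaffold, was at 38.7, 37.96, 30.2, 34.1 and 40.8 CPM in WT and at 24.1, 22.9, 24.7 and 22.05 CPM under the knockout label (log2 fold change -0.63, SE 0.09, adjusted p = 0.0011 in edgeR's test). Birc5, survivin, fell from 21.0 ± 2.097 to 10.7 ± 0.685 CPM (log2 fold change -0.97) and Aurkb, the kinase of the complex, from 12.8 ± 2.25 to 6.11 ± 0.259 CPM (log2 fold change -1.07). Cdca8, borealin, fell from 16.9 ± 2.29 to 8.92 ± 0.932 CPM. Their summed level had the tightest spread of the role groups under the knockout label, between 47.6 and 51.3 CPM, while WT lay between 73.9 and 96.6 CPM.

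Mki67 and Top2a were the most abundant of the 34 genes. Mki67 encodes Ki-67, the coat of mitotic chromosomes and a standard marker of dividing cells, and it was at 205, 210.1, 152, 205 and 272 CPM in WT and at 76.0, 71.7, 61.3 and 54.6 CPM in the libraries labelled FcγRIIB-/-. This was the largest change of the list, a log2 fold change of -1.66 (SE 0.16, adjusted p = 1.4e-04 in edgeR's test), and a level 3.17-fold lower. Top2a, the topoisomerase that untangles sister chromatids, was at 100.3, 96.1, 76.9, 96.3 and 119 CPM in WT and at 48.8, 46.3, 48.3 and 24.9 CPM under the knockout label, with a log2 fold change of -1.21 (SE 0.19, adjusted p = 0.0015 in edgeR's test). Replicate 4 labelled FcγRIIB-/- stood below the other 3 in Top2a, which lay close together. Per kilobase of transcript, a scale on which genes can be compared, Mki67 was at 20.8 and Top2a at 18.7 CPM per kb in WT, and the short Birc5 transcript was the highest of the list at 22.2 CPM per kb. The lowest per kilobase were Ttk at 2.24, Kif4 at 2.79 and Cenpf at 2.97 CPM per kb in WT.

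The 6 genes for spindle motors and spindle assembly were all lower and without overlap, with a median log2 fold change of -1.18. Kif11, the Eg5 motor that pushes the spindle poles apart, was at 37.0, 35.9, 25.3, 35.4 and 42.6 CPM in WT and at 15.3, 15.5, 15.4 and 10.1 CPM under the knockout label (log2 fold change -1.32, SE 0.17, adjusted p = 5.6e-04 in edgeR's test). Replicates 1 to 3 labelled FcγRIIB-/- were nearly equal in Kif11, and replicate 4 was lower. Nusap1, which bundles spindle microtubules around chromosomes, fell from 25.8 ± 4.25 to 9.50 ± 1.74 CPM, a log2 fold change of -1.44 that only Mki67 exceeded in the list. Kif4, a chromosome-bound motor, and Hmmr, a microtubule-binding protein of spindle poles, fell by 1.20 and 1.17 on the log2 scale. Kif4, too, has a pseudogene copy in the count table, Kif4-ps, and its count is uncertain in the same way. Tpx2, the activator of Aurka on the spindle, fell from 31.4 ± 5.22 to 18.9 ± 3.19 CPM (log2 fold change -0.73). Kif2c, a microtubule-depolymerizing kinesin, had a log2 fold change of -0.73, and its call was lost without replicate 3 labelled FcγRIIB-/- at an adjusted p of 0.0507 in edgeR's test.

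The 6 genes of the central spindle and cytokinesis were all lower as well, with a median log2 fold change of -0.76. Prc1, which crosslinks the central spindle, was at 30.4, 30.9, 26.4, 29.5 and 36.7 CPM in WT and at 19.1, 21.9, 17.5 and 14.7 CPM in the libraries labelled FcγRIIB-/- (log2 fold change -0.75, SE 0.12, adjusted p = 0.0019 in edgeR's test). No mouse labelled FcγRIIB-/- reached the lowest WT value of Prc1. Kif23 and Racgap1, the subunits of centralspindlin, fell by 0.74 and 0.84 on the log2 scale, and Kif20a, a motor of the central spindle, by 0.74. Ect2, the exchange factor that activates RhoA at the cleavage furrow, fell from 15.2 ± 1.99 to 8.91 ± 2.86 CPM. Anln, the furrow scaffold anillin, fell from 27.5 ± 5.84 to 15.4 ± 4.72 CPM, and replicate 2 labelled FcγRIIB-/-, at 21.1 CPM, lay above WT replicate 3, at 20.5 CPM.

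**Figure D2:**
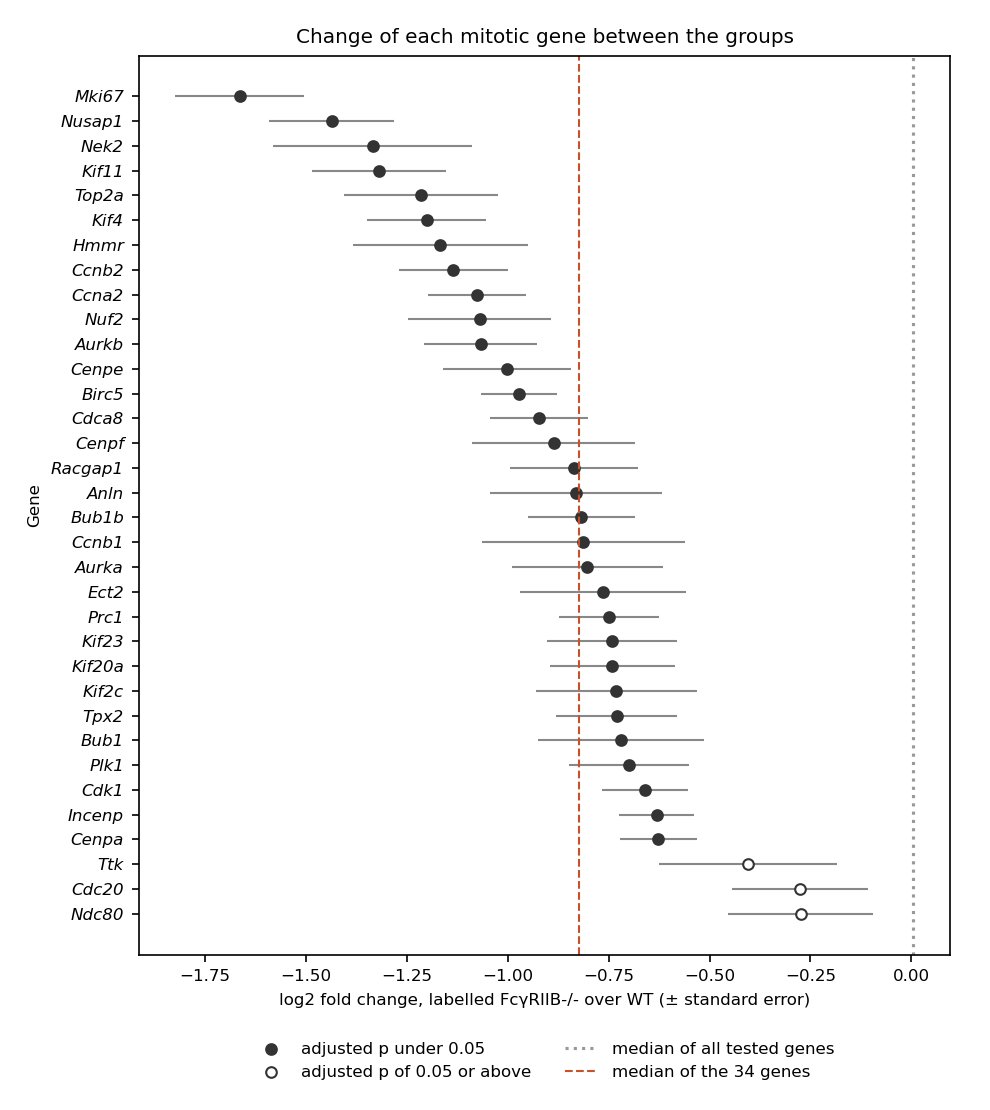
Log2 fold change of each of the 34 genes, libraries labelled FcγRIIB-/- over WT, with bars for the standard error, filled circles where the adjusted p was under 0.05 and open circles where it was not. Estimates run from -1.66 for Mki67 to -0.27 for Ndc80, around a median of -0.82 (dashed), and all lie below the median of all tested genes (dotted, 0.01).

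By role, the summed level under the knockout label as a share of that in WT ran from 35.2% for Mki67 and Top2a to 68.1% for the checkpoint genes. The spindle motors were at 46.5%, the cyclins and Cdk1 at 51.5%, the mitotic kinases at 53.4%, the passenger complex at 56.5%, the kinetochore genes at 56.8% and the cytokinesis genes at 58.2%. These shares were not tested against each other.

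Transcript length was compared because it moved with the fold change across all genes. In the quintile of genes with the shortest transcripts the median log2 fold change was 0.18 and 12.9% of genes were lower, and in the longest quintile, of at least 4811 bases, it was -0.16 and 33% were lower. Of the 34 genes, 3 of 3 in the shortest quintile and 6 of 6 in the longest were lower, with medians of -0.97 and -1.21. In the quintiles between, from shorter to longer, 5 of 7, 9 of 10 and 8 of 8 were lower, with medians of -0.80, -0.78 and -0.75. After the median of its quintile was taken from each gene, the median of the 34 genes was -0.81. The 34 genes lie on 15 chromosomes. A gene of the count table on the opposite strand shares exon bases with 7 of them (Ccna2, Cdc20, Cdca8, Kif20a, Kif4, Nusap1 and Prc1), and since the strand setting of the counting is not given in the sources used here, their counts may hold reads of the neighbour.

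The rest of the division machinery was described with 9 lists of other cell cycle genes, in which 176 genes were tested, 89 were lower and 8 were higher. Over all tested genes, 19.3% were lower and 14% were higher. Among 34 other kinetochore and checkpoint genes, 18 were lower and 1 was higher, with a median log2 fold change of -0.50. Knl1, the kinetochore scaffold to which Bub1 and Bub1b bind, fell from 12.5 ± 2.97 to 3.41 ± 1.51 CPM (log2 fold change -1.86). Cenpt, which ties the Ndc80 complex to the centromere, was higher, from 24.6 ± 2.38 to 31.5 ± 2.53 CPM (log2 fold change 0.36). Bub3, the most abundant gene of that list, was at 59.1 ± 2.26 and 56.7 ± 1.75 CPM and did not pass. Of 25 other spindle genes 16 were lower and 0 were higher, with Kif18b, a kinesin of microtubule plus ends, at -1.44 and Numa1, a spindle pole protein and the most abundant of the list, at -0.27. Of 17 condensin and cohesin genes 13 were lower and 0 were higher, with a median of -0.35. Ncapg, a condensin subunit, had a log2 fold change of -1.12 and Smc4, the condensin ATPase, of -0.22. The call of Smc4 was lost without any one mouse except WT replicate 3 and replicate 3 labelled FcγRIIB-/-, with adjusted p-values up to 0.1085 in edgeR's test.

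The anaphase-promoting complex and separase list, 20 genes, had a median of -0.01, with 5 lower (25%, against 19.3% of all tested genes) and 4 higher. Ube2c, the E2 enzyme that works with the complex, fell from 27.1 ± 2.64 to 10.6 ± 1.13 CPM (log2 fold change -1.35), and the small core subunit Anapc13 was higher, from 33.9 ± 3.44 to 52.1 ± 8.22 CPM (log2 fold change 0.62). Anapc5, the most abundant of the list, did not pass (log2 fold change 0.08). Of 11 other cytokinesis and abscission genes 2 were lower (18.2%, against 19.3% of all tested genes) and 0 were higher. Those were Cit, the citron kinase of the midbody (log2 fold change -1.54), and Vps4b, an ATPase of membrane scission (-0.30). Rhoa, the GTPase of the contractile ring, was at 263 ± 15.4 and 255 ± 17.8 CPM and did not pass.

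Earlier steps of the cycle were lower in part. Of 31 DNA replication genes 20 were lower and 1 was higher, with a median of -0.51. Rrm1, a subunit of ribonucleotide reductase and the most abundant of the list, fell from 81.8 ± 9.02 to 42.5 ± 7.52 CPM, and Orc1, an origin licensing factor, from 3.66 ± 0.688 to 0.981 ± 0.323 CPM. Gins4, a subunit of the replicative helicase, was higher by 0.24 on the log2 scale, and its call was lost without replicate 1 labelled FcγRIIB-/- (adjusted p = 0.061 in edgeR's test) and with library totals only (adjusted p = 0.114). Of 23 regulators of mitotic entry and of cell cycle transcription 9 were lower and 1 was higher. E2f2, an E2F factor that is abundant in maturing red cells, fell from 47.2 ± 7.57 to 9.79 ± 1.86 CPM (log2 fold change -2.27), Lin37, a DREAM subunit, was higher (0.42), and Rb1, the most abundant of the list, did not pass (0.04). Of 8 G1 cyclins and kinases 5 were lower, with Ccne1, cyclin E1, at -1.46, Cdk2, its kinase, at -0.24, and the most abundant, Ccnd2, at -0.05 without passing. The call of Cdk2 was lost without any one of WT replicates 1, 2 and 4 or of replicates 1 and 3 labelled FcγRIIB-/-, with adjusted p-values up to 0.0896 in edgeR's test.

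Of all tested genes, 14% were higher and 19.3% were lower. Among the 7 Cdk inhibitors 1 was higher and 1 was lower (14.3%), with a median log2 fold change of 0.17. Cdkn1a, the p21 inhibitor and the most abundant of them, was at 195, 195, 209, 185 and 184 CPM in WT and at 265, 281, 287 and 307 CPM in the libraries labelled FcγRIIB-/-. Its log2 fold change was 0.56 (SE 0.07, adjusted p = 6.1e-04 in edgeR's test), and the groups did not overlap. Cdkn2d, the p19 inhibitor of the G1 kinases, was lower (log2 fold change -0.45).

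**Figure D3:**
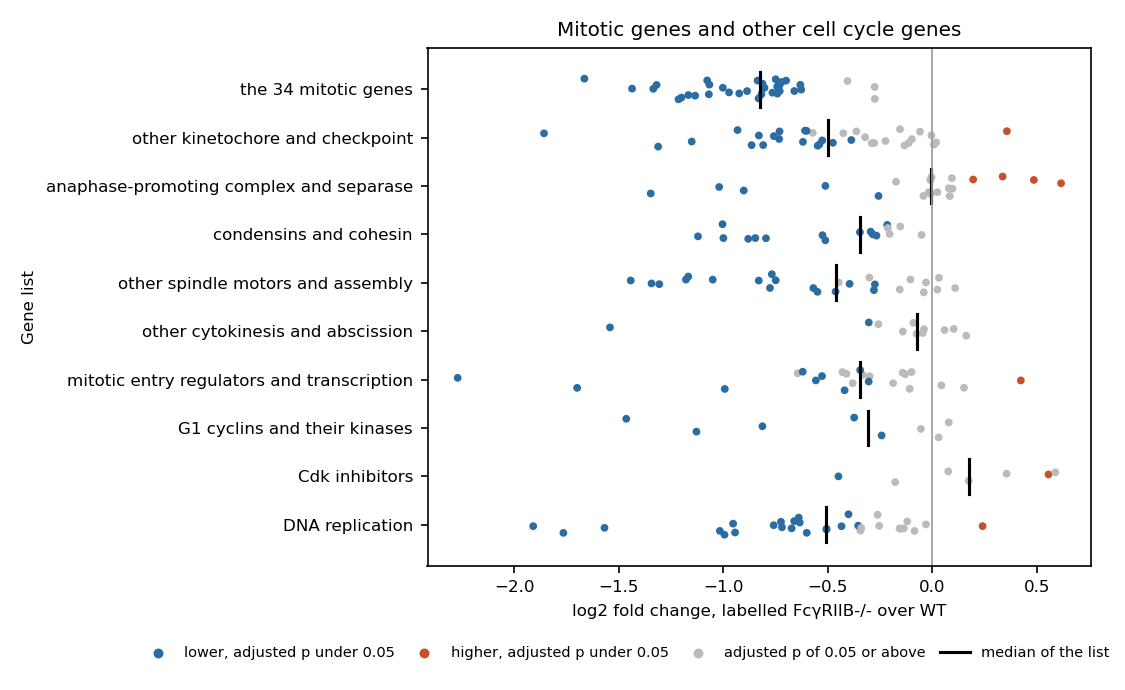
Log2 fold change, libraries labelled FcγRIIB-/- over WT, of each of the 34 mitotic genes and of the tested genes of 9 other cell cycle lists, colored by whether the adjusted p was under 0.05, with a black line at the median of each list. The 34 genes have the lowest median, -0.82, and the 7 Cdk inhibitors the highest, 0.17.

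Markers of several cell types moved with the mitotic genes, and their part in the result was not tested. The shares over all tested genes, 19.3% lower and 14% higher, apply to these lists too. All 17 erythroid precursor genes were lower, with a median log2 fold change of -3.65. They summed to 2734, 2616, 2420.4, 2772 and 2717 CPM in WT and to 427, 379, 501 and 801 CPM in the libraries labelled FcγRIIB-/-. Hbb-bs, a beta globin gene, was the most abundant, and the erythroid membrane gene Rhag was at 0 in replicate 1 labelled FcγRIIB-/-. Across the libraries labelled FcγRIIB-/- the erythroid sum was highest in replicate 4, in which the mitotic genes summed to the lowest level, 366 CPM.

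The 17 genes of neutrophils and their precursors were all lower too, with a median log2 fold change of -3.12. Their sums were 2040.5, 1853, 1452, 2159 and 4125 CPM in WT and 552, 240.3, 472 and 191 CPM under the knockout label, with S100a9 the most abundant and no gene at 0 in any library. WT replicate 5 was the highest and WT replicate 3 the lowest WT library, and replicate 4 labelled FcγRIIB-/- was the lowest of all. The mitotic genes and the osteoclast list had the same libraries at these ends. The neutrophil and osteoclast lists share Mmp9, which gave 265 of the mean osteoclast sum of 1153 CPM in WT. Itgb3 is in both the osteoclast and megakaryocyte lists. The megakaryocyte and macrophage sums had the same WT libraries at their ends, but replicate 2 labelled FcγRIIB-/- was their lowest library. Of 12 B cell precursor genes 11 were lower, with sums of 73.2, 114, 49.9, 54.3 and 65.2 CPM in WT and 19.7, 14.2, 23.6 and 34.4 CPM in the libraries labelled FcγRIIB-/-. Ebf1 was the most abundant of these, and Ms4a1, CD20, was at 0 in replicate 2 labelled FcγRIIB-/-. All 12 megakaryocyte genes were lower, with sums of 485, 478, 376, 389 and 490.4 CPM in WT and 178, 117, 182 and 191 CPM under the knockout label, Ppbp, a platelet chemokine, being the most abundant and none being at 0.

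Of 10 genes of hematopoietic progenitors 3 were lower, and their sums overlapped, between 341 and 389 CPM in WT and between 321 and 377 CPM in the libraries labelled FcγRIIB-/-. Myb, a factor of dividing progenitors, was among the 3, from 20.5 ± 3.09 to 4.37 ± 1.92 CPM. Sox4, the most abundant of the list, gave 96.5 of 352 CPM in WT and 125 of 346 CPM in the other group (means). The cells that held the transcripts of this list were not examined. Sox4 went the other way from Myb without passing (log2 fold change 0.37, adjusted p = 0.0704 in edgeR's test). With each mouse left out, its adjusted p lay between 0.0202 and 0.199 in edgeR's test. Of 10 osteoclast genes 9 were lower, with sums of 1025, 1321, 994, 1006 and 1418 CPM in WT and 612, 534, 515 and 358 CPM under the knockout label, Ctsk, cathepsin K, being the most abundant and none being at 0. Of 9 macrophage genes 5 were lower, with sums between 436 and 652 CPM in WT and between 368 and 462 CPM in the other group.

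The epithelial lists are given by layer, and the difference between the layers was not tested. The 11 tested genes of keratinized epithelium were all lower, and the list summed to 6894, 2852, 7825, 4881 and 16482 CPM in WT and to 289, 306, 114 and 172 CPM in the libraries labelled FcγRIIB-/-. Krt13 was the most abundant, and Flg, filaggrin, was at 0 in replicates 2 to 4 labelled FcγRIIB-/-. Of 8 genes of basal epithelium, the dividing layer, 0 were lower and 3 were higher, and they summed to 5212 ± 828 CPM in WT and 6263 ± 519 CPM under the knockout label. The call of Krt5, a keratin among the 3, was lost without any one of WT replicates 2 and 4 or of replicates 1, 2 and 3 labelled FcγRIIB-/- (adjusted p up to 0.0863 in edgeR's test). Those of Krt5 and Itgb4, an integrin, were lost with library totals only.

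The lists of bone-forming cells, tooth-forming cells and muscle are given next, and they were not tested against each other. Of 11 osteoblast and osteocyte genes 4 were lower and 0 were higher, with a median log2 fold change of 0.06. Their summed level was 104% of that in WT, and most of that sum was Col1a1. Of 8 ameloblast and odontoblast genes 5 were higher, and their summed level was 203% of that in WT. The call of Odam, an enamel organ gene among the 5, was lost without WT replicate 1 or replicate 3 or 4 labelled FcγRIIB-/- (adjusted p up to 0.0913 in edgeR's test). Of 12 skeletal muscle genes 6 were higher, and they summed to 13791 ± 3912 CPM in WT and 25928 ± 7511 CPM in the libraries labelled FcγRIIB-/-. The call of Actn3, a sarcomere gene among the 6, was lost without any one of WT replicates 3 and 5 or of replicates 1 and 4 labelled FcγRIIB-/- (adjusted p up to 0.116 in edgeR's test).

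**Figure D4:**
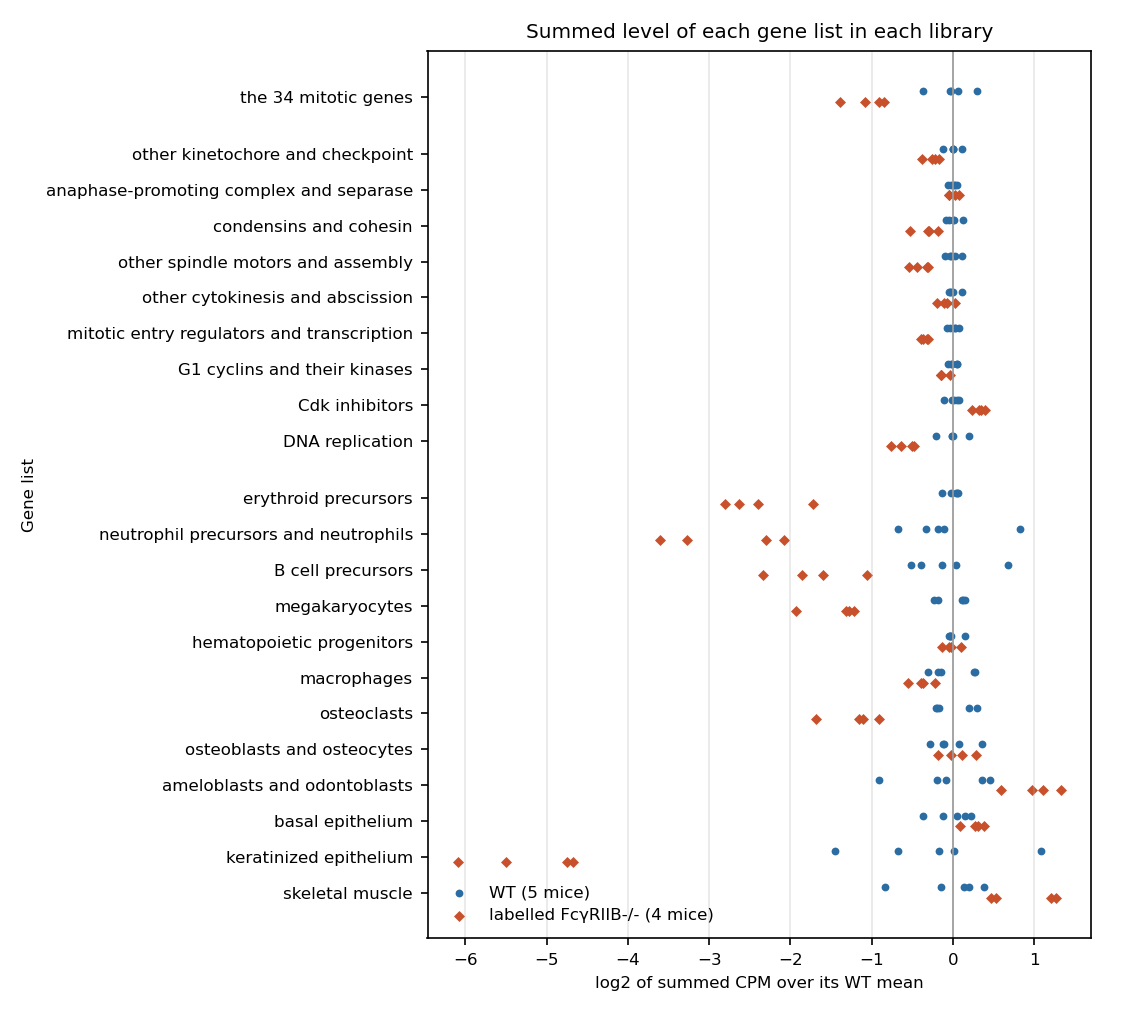
Summed CPM of the 34 mitotic genes, of 9 cell cycle lists and of 12 cell type lists in each library, as log2 over the WT mean of that list, with circles for 5 WT mice and diamonds for 4 mice labelled FcγRIIB-/-. The mitotic genes, the other kinetochore, condensin and cohesin, other spindle, mitotic entry and DNA replication lists, and the erythroid, neutrophil, B cell precursor, megakaryocyte, osteoclast and keratinized epithelium lists are lower in each library labelled FcγRIIB-/- than in any WT library, the Cdk inhibitor, muscle and tooth lists are higher, and the others overlap.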

How the data were processed

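The libraries were stranded poly(A) libraries. Before deposit, the authors trimmed the reads (Trim Galore), aligned them (HISAT 02.1.0, build mm10) and summed them over genes (featureCounts). The deposited values are these raw counts, without normalization. The gene annotation, strand setting and treatment of multi-mapping reads are not given in the sources used here. Samples were grouped by their labels, and 1 column that matches no mapped sample was not used. Of the 27179 genes, 1030 had no symbol, with 0.0971% of all counts.

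From the counts, R 4.3.3 and edgeR 4.0.16 (limma 3.58.1) were used: genes were kept by filterByExpr (minimum count 10), scaled by TMM and tested by the quasi-likelihood method with genotype as the single term, and p-values were adjusted by Benjamini-Hochberg over 16329 genes, at 0.05. The study used DESeq2, which was an alternative here (version 1.42.0). Standard errors were derived from the F statistic (the size of the log2 fold change divided by its square root), and log2 CPM used a prior count of 2. The test was tested on simulated data. Library pairs were checked for near-identical counts, and 0 were found. Transcript length was that of the longest principal GENCODE transcript, gene positions came from RefSeq, and promoter windows from RefSeq for GRCm38.p6.

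The 34 genes, the role groups and the lists were chosen with earlier results of these data known. Values per library are given for the most abundant gene of each role group, the largest and smallest changes, genes that did not pass, and Mki67 and Top2a. Of each other list, the called genes at the ends of the range (mean of at least 1 CPM), the most abundant gene and, where these were 3 or fewer, each higher gene could be named. Single genes at 0 in a library, cell cycle genes whose call was lost in an alternative, and the Ccnb2 promoter were named after their values were seen. Alternatives covered scaling, low-count filters, a fold limit, DESeq2, a replicate block and leaving out each mouse. The removal of a library from each group together and the correction for length were added after the data were seen.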

Additional observations from a re-analysis of the deposited data

Results flagged for a closer look

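In the 34 genes and their sum, 70 groups of libraries (each gene or sum in each genotype) were examined for a library far from the others of its group, and 3 held one. Chance alone gives about 1 in 20 such groups, and 3 of 70 is not above that share. The groups are not independent, because the same mice enter the groups of each gene. All 3 libraries found were replicate 4 labelled FcγRIIB-/-. Top2a was at 24.9 CPM there, with the other replicates between 46.3 and 48.8 CPM. Kif11 was at 10.1 CPM, with the others between 15.3 and 15.5 CPM. Nuf2 was at 4.21 CPM, with the others between 6.35 and 6.797 CPM. That library had the smallest total, 21453880 counts, and its part in these values was not tested.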

How the results depend on the processing

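The number of the 34 genes that were lower was 31 under each other scaling (RLE size factors, upper quartile, library totals only), both filters on low counts, DESeq2 and a limit of 0.5 on the absolute log2 fold change. It was 29 to 31 with each mouse left out, and 0 genes were higher in any alternative. Their median log2 fold change was between -0.94 and -0.72 with each mouse left out, and -0.62 without WT replicate 5 and replicate 4 labelled FcγRIIB-/- together, where 27 were lower and the calls of Ccnb1, Bub1, Kif2c and Anln were lost, as were those of Numa1 and Vps4b in the other lists (adjusted p = 0.0726 and 0.0625 in edgeR's test). Over 18 alternatives, 27 of the 31 calls held in each. Ttk, Cdc20 and Ndc80 passed in none, with adjusted p-values from edgeR and DESeq2 between 0.0822 and 0.851. In the cell type lists, the calls of Cd48, Adgre1 and Mepe were lost without certain single mice (adjusted p up to 0.0553, 0.0552 and 0.0633 in edgeR's test). The replicate numbers are shared by different mice, and samples sharing a number did not deviate together (correlations between -0.114 and 0.0969). With a replicate block, 30 of the 34 genes were lower (median -0.75, Bub1 lost at an adjusted p of 0.0775), and 2410 of all genes were lower and 1594 higher. With library totals only, the median of all genes moved to -0.07, 1309 genes were higher in all and 5 in the cell cycle lists. With the fold limit, 1971 of all genes were lower and 874 higher, and 2 were higher in the cell cycle lists, where the lower genes fell to 8 of the condensin and cohesin list, 3 of the G1 list, 1 of the other cytokinesis list and 0 of the Cdk inhibitors. Some log2 fold changes near 0 turned their sign without passing, and the cause was not tested. They were those of Rb1 (-0.0333) and Col1a1 (-0.0228) with library totals only, of Col1a1 (-0.0111) with the block, and of Bub3 (1.68e-05), Rhoa (0.0517), Ccnd2 (0.00029) and Col1a1 (-0.0711) without both libraries. With each mouse left out, the range was -0.00126 to 0.16 for Anapc5 (below 0 without replicate 4 labelled FcγRIIB-/-), -0.0226 to 0.189 for Col1a1 (likewise), -0.0454 to 0.23 for Dmp1 (likewise, and -0.00228 without WT replicate 1) and -0.0892 to 0.0099 for Rhoa (above 0 without WT replicate 5). The fewest counts of any of the 34 genes in a library were 44, of Nek2.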
